A study of Rattus norvegicus with 15 samples.

Results

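The cytosolic ribosomal protein genes were described in hearts of male Sprague-Dawley rats 24 h and 12 h after the start of severe acute pancreatitis (SAP), against hearts of sham-operated rats. Members were the probe sets of the array whose gene symbol was Rpl or Rps followed by a number, with an optional a, x, y or l, together with Rpsa and the stalk genes Rplp0, Rplp1 and Rplp2; the S6 kinase genes were left out. This gave 69 members, 26 of the small and 43 of the large ribosomal subunit, of 15049 probe sets with 1 gene symbol, and each member had 1 probe set. The rats were 8 to 10 weeks old, and SAP came from a 5% solution of the bile salt sodium taurocholate driven up the bile and pancreatic ducts. There were 5 hearts at 24 h, 5 at 12 h and 5 after sham surgery, with 1 array for each heart, and the labels name no transgene or altered allele. The series title and an RNA note speak of ischemia and reperfusion, while every sample's own source name gives SAP or sham surgery, and these sample names were followed. No source used here tells when the sham hearts were taken.

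The ribosome is built from a small 40S subunit, which reads the mRNA, and a large 60S subunit, which joins the amino acids. Its proteins are needed in nearly equal numbers, their genes are expressed in every cell, and their mRNAs belong to the most abundant ones. Nearly all of these mRNAs start with a C followed by a run of pyrimidines, the terminal oligopyrimidine tract, through which the kinase complex mTORC1 and the RNA-binding protein Larp1 set their translation and stability. A few members have tissue-restricted copies, among them Rpl3l, which takes the place of Rpl3 in ribosomes of heart and skeletal muscle.

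RefSeq starts on GRCr8 were found for 59 of the 69 members. Where a member had several annotated starts, only the first by genome coordinate was used, while the background counts every start. For a gene on the minus strand this is the most downstream of its starts. A tract at another annotated start of the same member was thus not counted. A C followed by at least 4 bases that are each C or T lay within 3 bases of the annotated start, on the strand of the gene, in 34 of these 59 (57.6%), against 11.2% of all 33469 annotated starts. Exactly at the annotated base it stood in 23 members (39.0%), against 2.63% of all starts. The windows below run from 15 bases before the start through the first 15 transcribed bases, and capitals mark the longest tract of this kind in the window. They are shown for the members on which the results turn, because they set tract-bearing starts beside those of the divergent copies Rpl3l and Rps27l.
Rps27 (chr2:177964592-177964621, minus strand): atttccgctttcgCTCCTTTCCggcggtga
Rplp1 (chr8:71290858-71290887, minus strand): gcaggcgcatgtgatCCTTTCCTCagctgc
Rps28 (chr7:15311319-15311348, minus strand): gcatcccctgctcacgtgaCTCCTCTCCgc
Rps6 (chr5:106420526-106420555, minus strand): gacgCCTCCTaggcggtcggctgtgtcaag
Rpl6 (chr12:41011676-41011705, minus strand): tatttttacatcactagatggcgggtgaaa
Rpl3 (chr7:113507976-113508005, minus strand): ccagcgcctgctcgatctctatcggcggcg
Rpl3l (chr10:14258431-14258460, plus strand): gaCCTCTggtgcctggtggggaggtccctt
Rps27l (chr8:76443643-76443672, plus strand): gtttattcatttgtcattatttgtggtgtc

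Rps27 and Rplp1 carry the tract across or at the annotated start, and Rps28 has it 4 bases downstream. In Rps6 and Rpl3l the marked stretch lies wholly upstream of the annotated start, and the windows of Rpl6, Rpl3 and Rps27l hold none. A window without these letters says nothing about the start sites used in the heart. The 34 members with a tract near the start used had a median log2 difference of 0.23 at 12 h against sham, and the 25 members without it there 0.31. Another choice of start could move members between these sets, and their difference was not tested.

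Expression was deposited as log2 values, 1 for each probe set, which the authors had normalized over all arrays. Member values lay between 9.63 and 19.13 log2, far above the pancreatic acinar genes, whose median of 4.65 log2 served as a guide to background. This guide is rough: acinar values reached 7.77 log2, and 1 of the 9 acinar genes was called higher at 24 h against sham. The labelled tissue was checked against 8 ventricular cardiomyocyte markers, whose mean lay between 18.33 and 18.52 log2 at 24 h, 18.31 and 18.60 at 12 h, and 18.19 and 18.62 in sham hearts. The arrays differed in atrial transcripts. Myl4 and Sln both exceeded 12 log2 in 4 arrays (SAP 12 h replicates 3 and 4, sham replicates 2 and 3), called atrium-rich here, and in none of the SAP 24 h arrays. Sham replicate 3 also stood apart for the members themselves. It held the lowest of all 15 values in 56 of 69 members, ties included, and its members lay a median of 0.47 log2 below their own medians over all arrays. Array medians over all probe sets lay between 5.9 and 5.98 log2, while the 99th percentile was 16.2 in sham replicate 3, the lowest of the 15 arrays, and 16.37 to 16.56 in the others. Many ribosomal protein genes have processed copies elsewhere in the genome, so a probe set may also have read near-identical transcripts.

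Hearts 12 h after SAP was started had slightly higher values for nearly all ribosomal protein genes than sham hearts. Of 69 members 66 had positive log2 differences, with a median of 0.27 (1.21-fold), while 51.8% of all probe sets were positive and their median was 0.01. Of the 1870 probe sets with a mean of at least 12 log2, closer in level to the members, 57.4% were positive with a median of 0.07. By limma, 4 members rose, namely Rps27, Rpl6, Rps6 and Rps28 (5.8% of members, against 2.35% of all probe sets called higher). Rpl3l was the 1 member that fell (1.45%, against 2.57% of all probe sets called lower). Both directions together make 7.25% of members, against 4.92% of all probe sets. Among the probe sets of at least 12 log2, 7.86% were called higher, 8.07% lower and 15.9% in either direction, so the members were not called more often than probe sets of like level. Upward, 34 members (49.3%) had an unadjusted p under 0.05, against 8.25% of all probe sets and 22.4% of those of at least 12 log2. Downward, 1 member had such a p, against 7.73% and 17.3%. All members were read from the same arrays, so these p-values are not independent of each other. In 11 members (15.9%, against 2.34% of all probe sets) every 12 h array lay above every sham array, and in 0 members, against 2.44%, every one lay below. In RNA of whole hearts, a change in the share of a cell type and a change in RNA per cell cannot be told apart.

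**Figure D1:**
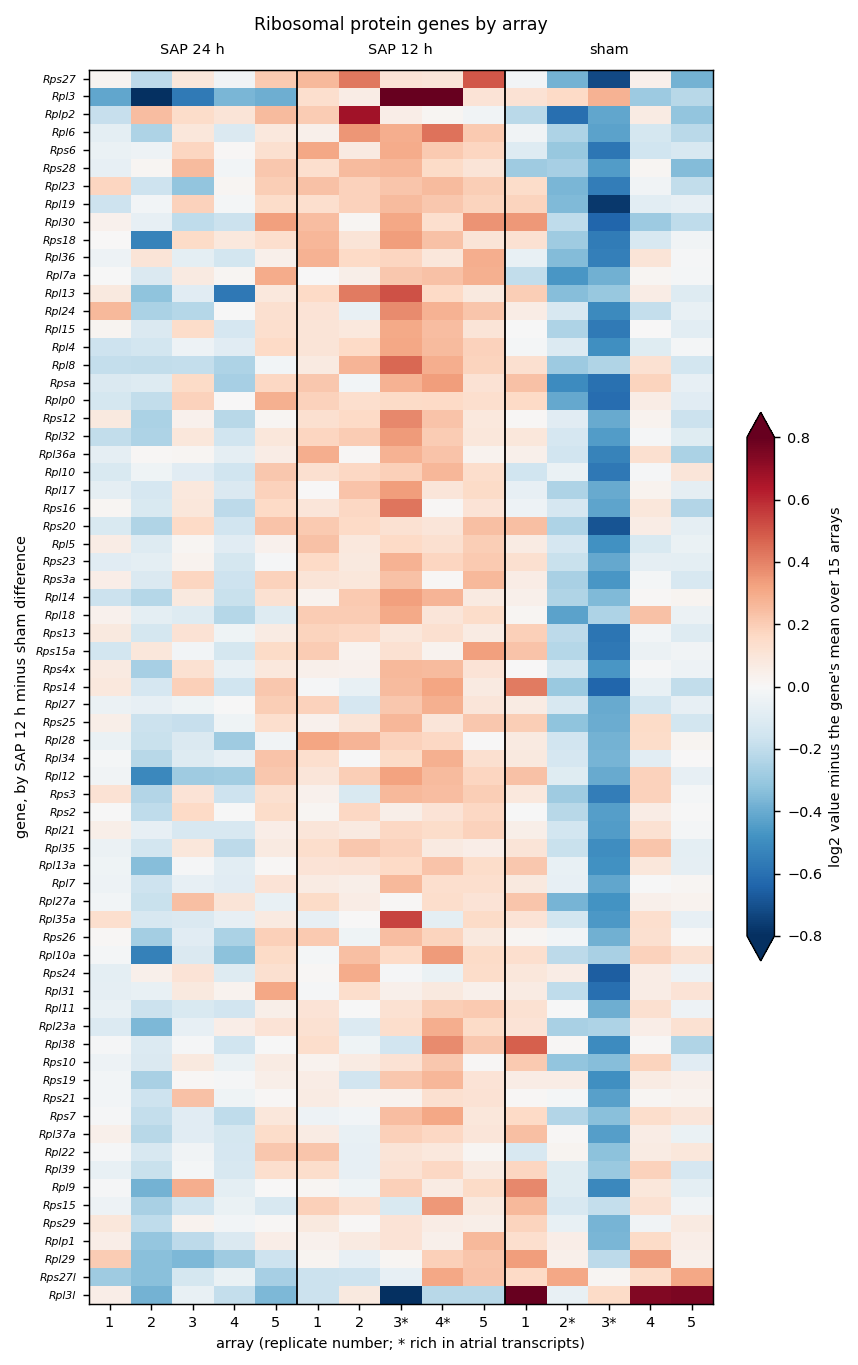
Heat map of 69 ribosomal protein genes (rows, ordered by the SAP 12 h minus sham difference) in 15 arrays (columns, by group, numbered by replicate, with a star for the 4 atrium-rich arrays). Colour gives the log2 value minus the gene's own mean over the 15 arrays, with the scale ending at 0.8 on either side; the SAP 12 h columns are mostly red, and sham replicate 3 is blue in nearly every row, with Rpl3, Rpl3l and Rps27l as rows that depart from the pattern.

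Among small-subunit genes, Rps6 encodes the protein that S6 kinase phosphorylates downstream of mTORC1. Its values were 17.30, 17.06, 17.29, 17.20 and 17.16 log2 at 12 h, against 16.89, 16.69, 16.41, 16.83 and 16.86 in sham hearts. All 12 h arrays were above all sham arrays, and the log2 difference was 0.47 ± 0.11 (SE, adjusted p = 0.0192). Rps27, a zinc-finger protein of the 40S subunit, had 14.43, 14.59, 14.28, 14.27 and 14.67 log2 at 12 h, against 14.15, 13.79, 13.45, 14.21 and 13.79 in sham hearts. Its groups did not overlap either, although the closest arrays were 14.27 and 14.21, and the difference of 0.57 ± 0.14 (adjusted p = 0.0259) was the largest positive one of the 69 members. Rps28, a small 40S protein, had 14.14, 14.26, 14.27, 14.16 and 14.11 log2 at 12 h, against 13.72, 13.74, 13.56, 14.02 and 13.66 in sham hearts. Its difference was 0.45 ± 0.11 (adjusted p = 0.0230) without overlap. Over all 26 small-subunit members 25 were positive, and the median was 0.27 log2. Rps18, often used as a reference gene, had a difference of 0.38 ± 0.15 (adjusted p = 0.178), Rpsa, also known as the laminin receptor precursor, 0.33 ± 0.16 (adjusted p = 0.311), the X-linked Rps4x 0.27 ± 0.12 (adjusted p = 0.258), Rps15a 0.27 ± 0.13 (adjusted p = 0.339) and Rps3 0.24 ± 0.14 (adjusted p = 0.468). Of these 5, only Rps4x had 12 h arrays that all lay above the sham arrays.

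Among large-subunit genes, Rpl6 was called higher. It had 14.97, 15.28, 15.22, 15.36 and 15.14 log2 at 12 h, against 14.90, 14.68, 14.50, 14.79 and 14.71 in sham hearts, a difference of 0.48 ± 0.11 (adjusted p = 0.0185) with no overlap. The 43 large-subunit members had a median of 0.26 log2, and 41 were positive. The acidic stalk recruits elongation factors to the ribosome and is made of Rplp0 with Rplp1 and Rplp2. Rplp2 had a difference of 0.48 ± 0.15 (adjusted p = 0.0805), Rplp0 of 0.33 ± 0.14 (adjusted p = 0.251) and Rplp1 of 0.10 ± 0.12 (adjusted p = 0.787), so none of the stalk genes was called. Rplp0 was nearly constant within the 12 h group, at 15.53 to 15.58 log2, whereas the sham arrays spread from 14.79 to 15.56. Rpl5 and Rpl11, which bind 5S rRNA and, when free, the p53 regulator Mdm2, had differences of 0.31 ± 0.11 (adjusted p = 0.137) and 0.16 ± 0.11 (adjusted p = 0.544). Rpl10, a protein that joins the 60S subunit late in its assembly, had 0.32 ± 0.12 (adjusted p = 0.190). Rpl10 and Rpl5, but not Rpl11, had 12 h arrays that all exceeded the sham arrays. The genes Rpl32 and Rpl13a, both in use as reference genes, had 0.32 ± 0.12 (adjusted p = 0.155) and 0.21 ± 0.12 (adjusted p = 0.447), and Rpl39, a small protein of the exit tunnel, 0.12 ± 0.11 (adjusted p = 0.709). Further differences with small unadjusted p were those of Rpl23 (0.42 ± 0.14, adjusted p = 0.0934), Rpl7a (0.37 ± 0.12, adjusted p = 0.104), Rpl8 (0.34 ± 0.12, adjusted p = 0.114) and Rpl19 (0.41 ± 0.14, adjusted p = 0.126).

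**Figure D2:**
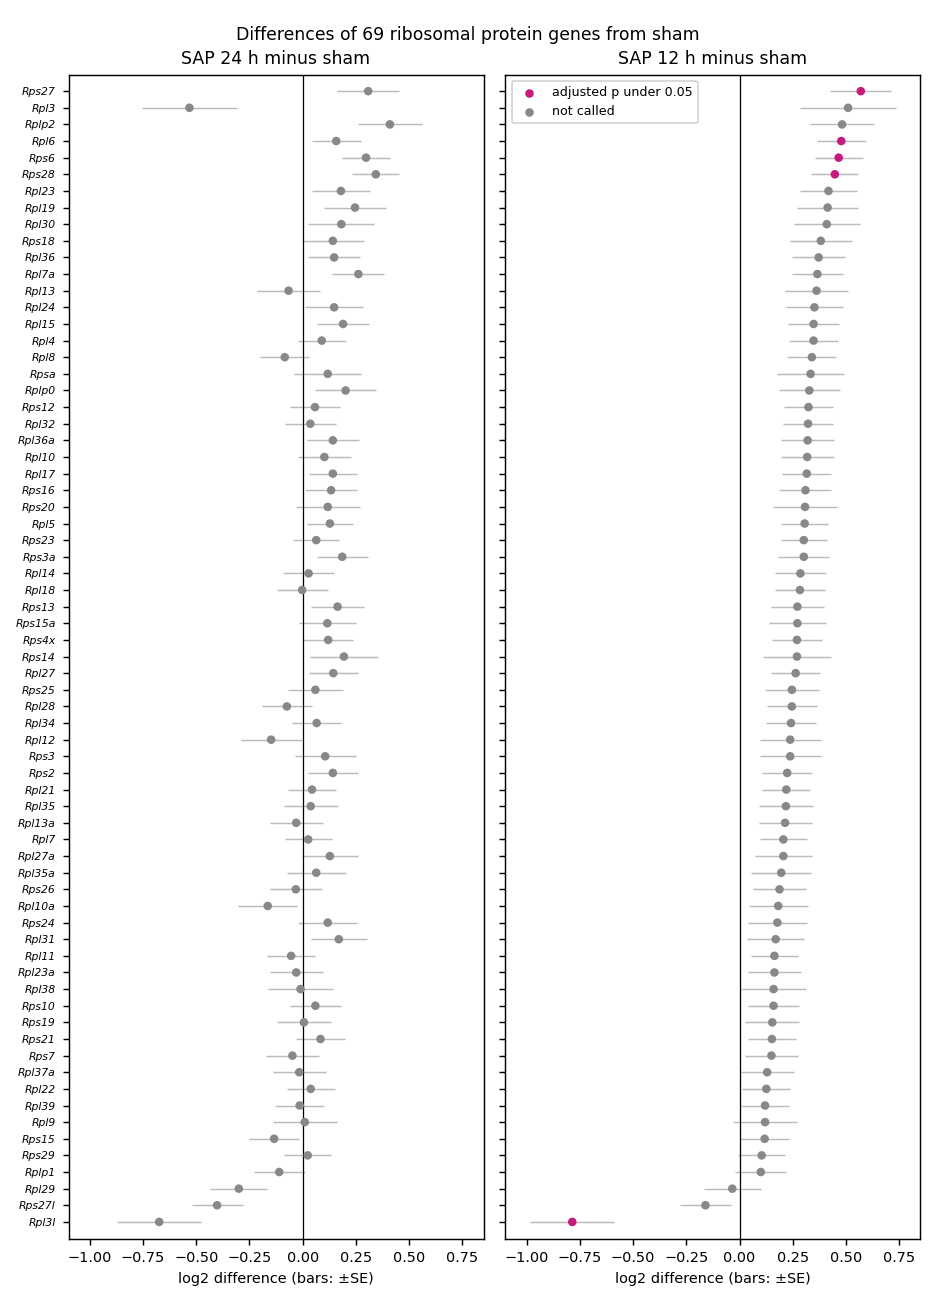
Log2 differences (horizontal axis) of the 69 genes (vertical axis, the same order in both panels) for SAP 24 h minus sham on the left and SAP 12 h minus sham on the right, with bars of ± 1 SE and coloured points for adjusted p under 0.05. At 12 h 66 of 69 points lie right of 0 and 5 are coloured, and at 24 h 49 lie right of 0 and none is coloured.

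The size of the 12 h difference depended on which arrays were used. Without sham replicate 3, 66 members were still positive but the median was 0.17 log2, 18 had an unadjusted p under 0.05 upward (7.25% of all probe sets), and the adjusted p of Rpl6, Rps28 and Rps27 was 0.0515, 0.0597 and 0.0686. Without the 4 atrium-rich arrays, which also removes the 12 h arrays with the highest member means and leaves 3 arrays in each of the groups compared, 52 members were positive with a median of 0.10 log2, 5 had such a p upward (6.36% of all probe sets), and the calls were lost. The differences were then 0.51 for Rps27 (adjusted p = 0.125), 0.37 for Rps28 (0.282), 0.33 for Rpl6 (0.342) and 0.31 for Rps6 (0.317), smaller than with all arrays but of the same sign. With the mean of 6 atrial markers as a covariate and all arrays kept, the same 5 members were called (5.35% of all probe sets were called) and the median was 0.27. This covariate could hardly move the comparison, because both groups held atrium-rich arrays. The atrial mean ran from 6.8 to 17.0 log2 at 12 h and from 8.2 to 15.1 in sham hearts. The covariate also fits the same atrial effect in every group. Members of the atrium-rich arrays lay above their own medians at 12 h but below them in sham hearts, which such a term cannot follow. Single arrays also decided calls elsewhere. The adjusted p of Rps6 was 0.0502 without SAP 12 h replicate 1. That of Rps28 was 0.0515 without SAP 12 h replicate 3 and 0.0616 without sham replicate 5. That of Rps27 was 0.0502, 0.0523 and 0.0703 without SAP 12 h replicates 1, 2 and 5, and 0.0623 and 0.0671 without sham replicates 2 and 5. Rpl23 (0.0440) and Rpl30 were called without sham replicate 1, and Rplp2 (0.0444) without sham replicate 4.

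The spread of the members differed between the groups. The mean over the 69 members was 15.33 ± 0.11 log2 at 24 h, 15.53 ± 0.05 at 12 h and 15.28 ± 0.21 in sham hearts (SD, n = 5 arrays each). By array this mean ran from 15.19 to 15.47 at 24 h, from 15.48 to 15.58 at 12 h and from 14.95 to 15.49 in sham hearts, so the highest sham array reached the 12 h arrays. The median SD of a member was 0.15 log2 at 24 h, 0.10 at 12 h and 0.23 in sham hearts, and in 58 of 69 members the sham group had the largest SD. Over all probe sets the sham group had the largest SD in 27.1%, and the median SD was 0.21 log2 at 24 h, 0.25 at 12 h and 0.21 in sham hearts. The sham spread rested in part on replicate 3. Without it the SD of the sham array means was 0.126 and the median SD of a member in sham hearts was 0.16, both still the largest of the 3 groups. The sham group then had the largest SD in 29 members and the 24 h group in 31. The atrium-rich arrays did not lie on one side: the members of SAP 12 h replicates 3 and 4 lay a median of 0.17 and 0.14 log2 above their own medians over all arrays, and those of sham replicates 2 and 3 lay a median of 0.22 and 0.47 below.

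**Figure D3:**
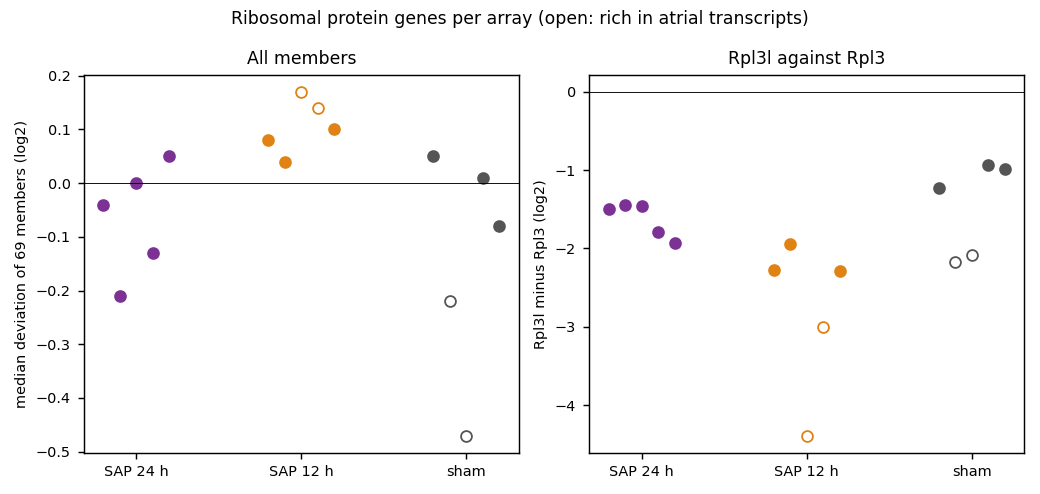
Each point is 1 array, by group on the horizontal axis, with open points for the 4 atrium-rich arrays. Left, the median over 69 genes of the log2 deviation from each gene's median over all arrays, with the 12 h arrays between 0.04 and 0.17 and sham replicate 3 at -0.47; right, the log2 value of Rpl3l minus that of Rpl3, lowest in SAP 12 h replicate 3 at -4.39.

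The paralogs Rpl3 and Rpl3l departed from the other members and from each other. Rpl3 protein reaches towards the peptidyl transferase centre of the 60S subunit, and Rpl3l takes its position in striated muscle. Rpl3l had 11.77, 11.34, 11.66, 11.53 and 11.36 log2 at 24 h, 11.55, 11.80, 10.75, 11.50 and 11.50 at 12 h, and 12.57, 11.66, 11.87, 12.46 and 12.47 in sham hearts. The sham arrays 1, 3, 4 and 5 were above all SAP arrays, the atrium-rich array 3 by little, while the atrium-rich array 2 overlapped with both SAP groups. Rpl3l fell at 12 h, by a log2 difference of -0.79 ± 0.20 (1.72-fold lower, adjusted p = 0.0254). At 24 h its difference was -0.67 ± 0.20 (adjusted p = 0.0687). Leaving out the 4 atrium-rich arrays gave -0.88 at 12 h (adjusted p = 0.00754) and -0.97 at 24 h (adjusted p = 0.00293). This removes the lowest sham values, 11.66 and 11.87, and so raises the sham mean by itself. The atrial covariate gave -0.78 at 12 h (adjusted p = 0.00519) and -0.95 at 24 h (adjusted p = 0.00654). The 24 h atrial means, 6.79 to 7.66 log2, all lay below the sham means of 8.20 to 15.08, so the covariate value at 24 h is an extrapolation. The 12 h call was lost with adjusted p of 0.0591 without SAP 12 h replicate 3 and of 0.0730, 0.0725 and 0.0753 without sham replicates 1, 4 and 5. The 24 h difference was called without sham replicate 2 (adjusted p = 0.0308) and without SAP 12 h replicate 3 (0.0309), an array that enters that comparison only through the shared spread.

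Rpl3 moved differently over time. Its values were 13.27, 12.79, 13.12, 13.32 and 13.29 log2 at 24 h, 13.82, 13.74, 15.14, 14.51 and 13.79 at 12 h, and 13.80, 13.84, 13.96, 13.39 and 13.46 in sham hearts. The 2 highest values were those of the atrium-rich 12 h arrays, and the 24 h arrays lay below all others. Rpl3 fell by 1.04 on the log2 scale at 24 h against 12 h (SE 0.22, 2.06-fold lower, adjusted p = 0.0357), the 1 member called in this comparison. Against sham its difference was -0.53 ± 0.22 at 24 h (adjusted p = 0.228) and 0.51 ± 0.22 at 12 h (adjusted p = 0.258), and neither was called. The fall from 12 h was 0.63 log2 without the atrium-rich arrays (adjusted p = 0.116) and 0.64 with the atrial covariate (adjusted p = 0.114). The call was also lost without SAP 12 h replicate 4 (adjusted p = 0.0911) and without SAP 24 h replicate 1, 2, 3, 4 or 5 (0.0725, 0.108, 0.0641, 0.0644 and 0.0692). The within-array difference of Rpl3l minus Rpl3 cancels any scaling of the array, and was looked at after the values of both genes had been seen. It averaged -1.63 ± 0.22 log2 at 24 h, -2.78 ± 0.98 at 12 h and -1.48 ± 0.61 in sham hearts (SD, n = 5). It is given as a description, with no test. Without the atrium-rich arrays the mean was -1.63 ± 0.22 at 24 h (n = 5) and -2.17 ± 0.20 at 12 h (n = 3). In sham hearts it was then -1.05 ± 0.16 (n = 3). The 3 groups did not overlap, but SAP 24 h replicate 5 at -1.93 and SAP 12 h replicate 2 at -1.94 nearly met. With all arrays kept, sham replicates 2 and 3, at -2.18 and -2.09, lay among the 12 h values.

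**Figure D4:**
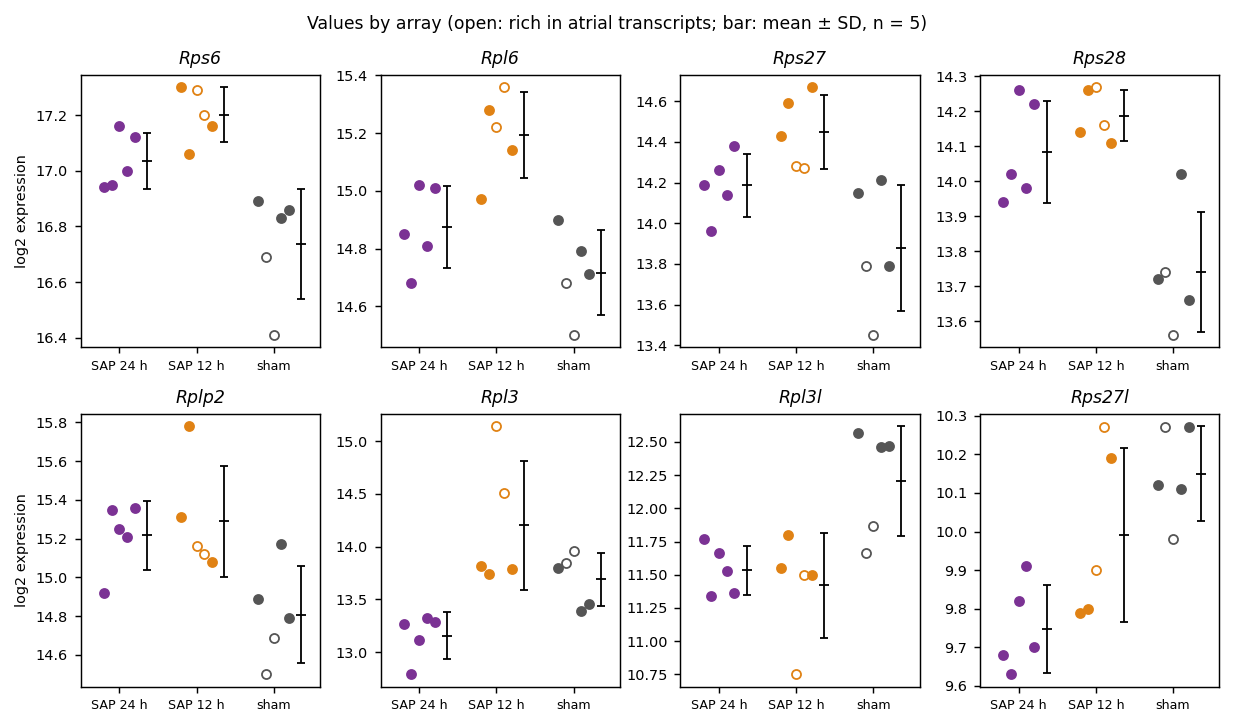
Log2 expression by array (vertical axis, a scale of its own for each gene that does not start at 0) of Rps6, Rpl6, Rps27, Rps28, Rplp2, Rpl3, Rpl3l and Rps27l at 24 h, at 12 h and in sham hearts, with open points for atrium-rich arrays and bars for mean ± SD (n = 5). Rps6, Rpl6, Rps27 and Rps28 are higher in all 12 h arrays than in all sham arrays, Rpl3 is lower in all 24 h arrays than in all others, and Rpl3l is higher in sham arrays 1, 3, 4 and 5 than in all SAP arrays.

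At 24 h after SAP was started no ribosomal protein gene was called against sham by limma, in a comparison that called 3.37% of all probe sets, 1.23% higher and 2.14% lower. The median log2 difference of the 69 members was 0.07 (1.05-fold), with 49 positive (71%, against 54.4% of all probe sets) and 20 negative (29%, against 45.2%), and 58 differences were within 0.2 of 0. An unadjusted p under 0.05 was found for 5 members upward (7.25%, against 7.78% of all probe sets) and 4 downward (5.8%, against 8.65%). Among probe sets of at least 12 log2 these shares were 14.2% upward and 15.99% downward, above those of the members. The 5 were Rps28 (0.34 ± 0.11, adjusted p = 0.0994), Rplp2 (0.41 ± 0.15, adjusted p = 0.158), Rps6 (0.30 ± 0.11, adjusted p = 0.168), Rpl7a (0.26 ± 0.12, adjusted p = 0.288) and Rps27 (0.31 ± 0.14, adjusted p = 0.293). Rps6 was the 1 member (1.45%, against 2.62% of all probe sets) whose 24 h arrays, at 16.94, 16.95, 17.16, 17.00 and 17.12 log2, all lay above the sham arrays. Rplp2 had 14.92, 15.35, 15.25, 15.21 and 15.36 log2 at 24 h, against 14.89, 14.50, 14.69, 15.17 and 14.79 in sham hearts, and its groups overlapped. Without sham replicate 3 the median of all members was -0.01 log2 with 29 positive, and without the atrium-rich arrays it was -0.08 with 19 positive, so the sign of the median at 24 h rested on these arrays.

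The downward members at 24 h were Rpl3, Rpl3l, Rps27l and Rpl29. Rps27l is a copy of Rps27 that p53 induces in human cells. It had 9.68, 9.63, 9.82, 9.91 and 9.70 log2 at 24 h, 9.79, 9.80, 9.90, 10.27 and 10.19 at 12 h, and 10.12, 10.27, 9.98, 10.11 and 10.27 in sham hearts. All 24 h arrays were below all sham arrays, and the difference was -0.40 ± 0.12 (adjusted p = 0.0729). Rps27l was called at 24 h in 3 of 24 alternative fits, among them that of the 2 groups alone (adjusted p = 0.0470). Of the 15 fits with 1 array left out 0 called it (adjusted p from 0.0603 to 0.164). Its adjusted p was 0.142 without the atrium-rich arrays and 0.229 with the atrial covariate. The 12 h difference was -0.16 ± 0.12 (adjusted p = 0.595). Rpl29, a 60S protein, had a difference of -0.30 ± 0.13 at 24 h (adjusted p = 0.267) and of -0.03 ± 0.13 at 12 h (adjusted p = 0.950). Rpl3 and Rps27l were the 2 members (2.9%, against 3.37% of all probe sets) with every 24 h array below every sham array. Rps27 had a positive difference at both times where its copy Rps27l had a negative one, and this contrast was not tested.

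Between the SAP groups, 24 h values lay below 12 h values for 67 of 69 members, with a median of -0.18 log2 (1.13-fold lower), while 46.3% of all probe sets were negative, 53.2% were positive and their median was 0.02. Of the probe sets of at least 12 log2, 57.7% were negative, with a median of -0.05. For 65 members the 12 h mean was the highest of the 3 groups, and for 48 the 24 h mean lay between the 12 h and the sham mean. An unadjusted p under 0.05 was found for 14 members downward (20.3%, against 7.35% of all probe sets and 14.1% of those of at least 12 log2) and for 0 upward (5.84% of all probe sets), and in 9 members (13%, against 1.59%) every 24 h array lay below every 12 h array. The 1 called member was Rpl3 (1.45%, against 0.569% of all probe sets called lower and 0.69% called in either direction, and 1.02% called lower of those of at least 12 log2). Rpl8, which lies near the peptidyl transferase centre, had 14.75, 14.74, 14.75, 14.69 and 14.92 log2 at 24 h, against 15.01, 15.21, 15.40, 15.23 and 15.12 at 12 h. The groups did not overlap and the difference was -0.42 ± 0.12 (adjusted p = 0.104). The next by unadjusted p were Rpl13 (-0.43 ± 0.15, adjusted p = 0.197), Rpl6 (-0.32 ± 0.11, adjusted p = 0.212), Rpl28 (-0.32 ± 0.12, adjusted p = 0.220) and Rpl12 (-0.39 ± 0.14, adjusted p = 0.236), of which Rpl28 alone had groups that did not overlap. Rpl3l was the 1 member with a positive difference (0.11 ± 0.20, adjusted p = 0.863). Without the atrium-rich arrays, all of which in this comparison were 12 h arrays, 67 members were negative with a median of -0.14 log2, and 7 had an unadjusted p under 0.05 downward (5.57% of all probe sets). The 2 comparisons with sham share the sham arrays, and the 12 h arrays enter this one and that of 12 h against sham.

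Genes that make or drive ribosomes were looked at next. Of 35 measured ribosome biogenesis factors 2 rose at 24 h and 1 at 12 h, none fell, and the medians were 0.07 and 0.07 log2. The shares called higher, 5.71% at 24 h and 2.86% at 12 h, stand against 1.23% and 2.35% of all probe sets, so the 12 h share is near the background. Npm1, the nucleolar protein nucleophosmin, was called at both times (0.77 ± 0.13, adjusted p = 0.00307 at 24 h, and 0.71 ± 0.13, adjusted p = 0.00325 at 12 h), with 16.26 to 16.79 log2 at 24 h, 16.20 to 16.62 at 12 h and 15.39 to 15.79 in sham hearts. Neither SAP group overlapped with sham. Ddx10, a helicase of ribosome assembly, rose at 24 h (0.57 ± 0.14, adjusted p = 0.0245). Of 31 measured translation factors 4 rose (12.9%, against 1.23% of all probe sets) and 1 fell (3.23%, against 2.14%) at 24 h, and 5 rose (16.1%, against 2.35%) at 12 h. Their median level was 12.84 log2. Among the probe sets of at least 12 log2, 4.81% were called higher and 6.36% lower at 24 h, and 7.86% higher at 12 h. The eIF3 subunits Eif3e and Eif3m, parts of the complex that brings mRNA to the 40S subunit, were higher by 0.91 ± 0.14 and 0.53 ± 0.10 at 24 h (adjusted p = 9.72e-04 and 0.00459) and by 1.02 ± 0.14 and 0.63 ± 0.10 at 12 h (adjusted p = 2.21e-04 and 6.21e-04). The initiation factor gene Eif4b rose at both times (0.60 log2 at 24 h and 0.59 at 12 h) and the helicase gene Eif4a2 at 24 h (0.98), while Eif4g2, a relative of the scaffold eIF4G, fell at 24 h (-0.40 ± 0.10, adjusted p = 0.0253). Eef1b2, a subunit of the exchange factor for elongation factor 1A, rose at 12 h (0.50 ± 0.12, adjusted p = 0.0244) and had 0.06 ± 0.12 at 24 h (adjusted p = 0.881). Eef2, the translocation factor, likewise rose at 12 h (0.38 ± 0.10, adjusted p = 0.0341) and had 0.10 ± 0.10 at 24 h (adjusted p = 0.697).

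Of 25 measured genes of the mTORC1 pathway and of its control of these mRNAs, 2 fell at 24 h (8%, against 2.14% of all probe sets), and 1 rose (4%, against 2.35%) and 2 fell (8%, against 2.57%) at 12 h. Mtor, the kinase itself, fell at 24 h (-0.50 ± 0.13, adjusted p = 0.0469). Lamtor1, a lysosomal anchor of the complex, fell at both times (-0.66 ± 0.14, adjusted p = 0.0129 at 24 h, and -0.55 ± 0.14, adjusted p = 0.0274 at 12 h), and the GTPase gene Rragd fell at 12 h (-0.62 ± 0.17, adjusted p = 0.0341). Myc, a transcription factor that drives ribosomal genes, rose at 12 h (0.94 ± 0.22, adjusted p = 0.0149) and had 0.24 ± 0.22 at 24 h (adjusted p = 0.638). Its values were 5.99 to 6.94 log2 at 24 h, 6.63 to 7.53 at 12 h and 5.62 to 6.62 in sham hearts, so the 12 h arrays lay just above the sham arrays. All Myc values lay below 7.77 log2, the highest value of the acinar guide to background. The ribosomal protein gene Fau, which the symbol rule leaves out, had differences of 0.07 log2 at 24 h and 0.24 at 12 h, and Rpl22l1, a copy of Rpl22, had 0.03 and 0.20, and none of these was called.

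The ribosomal proteins of the mitochondrion, which make a separate ribosome for the proteins encoded by mitochondrial DNA, had mostly negative differences at both times. Of 66 measured Mrpl and Mrps genes 12 fell at 24 h (18.2%, against 2.14% of all probe sets) and 18 at 12 h (27.3%, against 2.57%), and none rose, with medians of -0.31 and -0.40 log2 and 56 and 58 negative. Mrpl12, which also binds the mitochondrial RNA polymerase, fell by 1.26 log2 at 24 h and by 1.19 at 12 h (adjusted p = 2.39e-04 and 2.21e-04). Without the atrium-rich arrays 14 fell at 24 h and 12 at 12 h, with medians of -0.39 and -0.39, where the cytosolic medians were -0.08 at 24 h and 0.10 at 12 h. The difference between the 2 families was not tested.

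**Figure D5:**
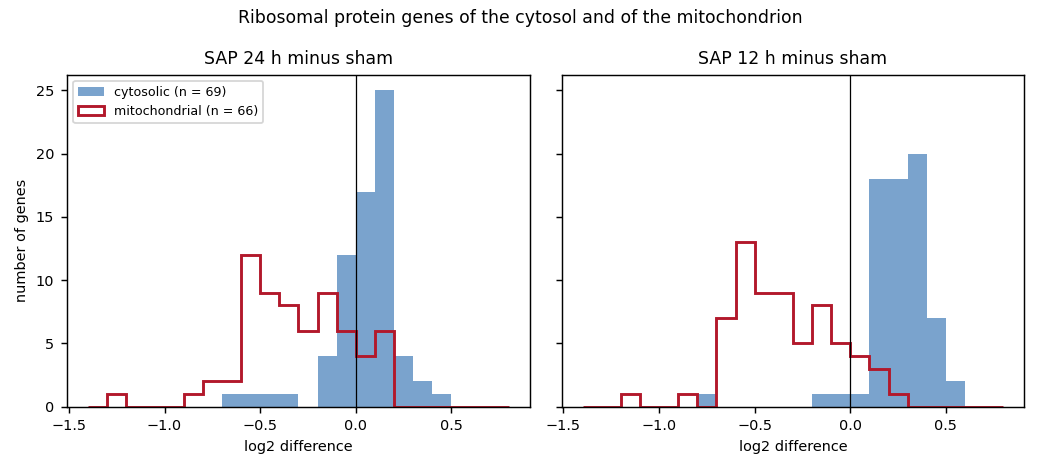
Histograms of log2 differences (horizontal axis, bins of 0.1) against the number of genes (vertical axis) for 69 cytosolic (filled) and 66 mitochondrial (outlined) ribosomal protein genes, for SAP 24 h minus sham on the left and SAP 12 h minus sham on the right. The cytosolic medians are 0.07 and 0.27 log2 and the mitochondrial ones -0.31 and -0.40.

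Markers of other cell types were measured beside these results. Of all probe sets, 1.23% were called higher and 2.14% lower at 24 h against sham, and 2.35% and 2.57% at 12 h. All 12 macrophage and monocyte markers had positive differences at 12 h and 5 were called. Their mean per array was 8.73 to 9.12 log2 at 24 h, 9.20 to 10.25 at 12 h and 8.73 to 8.94 in sham hearts. Of 10 neutrophil markers 9 were positive and 4 called at 12 h (Lcn2, Mmp8, S100a8 and S100a9, by 1.38 to 3.20 log2), and 1 was called higher at 24 h. Their means were 4.76 to 5.97 at 24 h, 5.22 to 5.99 at 12 h and 4.43 to 4.75 in sham hearts. The receptor gene Csf3r and the granule genes Ngp and Camp, not called, averaged under 4 log2 in each group. The 9 T and B lymphocyte markers had means of 4.91 to 5.06 at 24 h, 4.77 to 4.94 at 12 h and 4.76 to 4.90 in sham hearts, near the acinar guide to background, and none was called. Fibroblast markers had means of 10.45 to 10.75 at 24 h, 10.40 to 12.15 at 12 h and 10.91 to 12.48 in sham hearts, with median differences of -1.07 at 24 h and -0.81 at 12 h; of these 8 markers 1 was called lower at 24 h (Col1a2) and 1 higher at 12 h (Tcf21). The 8 endothelial markers had means of 10.78 to 11.19 at 24 h, 10.60 to 11.56 at 12 h and 10.63 to 10.91 in sham hearts, with median differences of 0.22 at 24 h and 0.35 at 12 h, and 2 were called higher at 12 h (Emcn and Vwf). The part of these cells in the ribosomal protein values was not tested.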

How the data were processed

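Per the labels and the name of the table, the authors deposited log2 expression values per transcript cluster, normalized together (RMA: background correction, quantile normalization and median polish). Affymetrix Expression Console is the software listed, without a version, per the submitters' processing notes. Probe set identifiers are of a rat array, although the series' design names one for mouse. Both deposited tables agreed in each value (largest difference 0). Symbols came from GEO's platform annotation, in which 15049 of 23188 probe sets had 1 symbol, 0 several and 8139 none. Fold sizes assume plain log2.

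In R 4.3.3, limma 3.58.1 estimated the mean of each group from the 15 arrays together (lmFit, eBayes), without a filter, and p-values were adjusted over 23188 probe sets by Benjamini-Hochberg; adjusted p under 0.05 was called. The fit was tested on simulated data. The median standard error was 0.150 log2, and depth has no counterpart on arrays, whose number limits the precision. The series' design gives 5 hearts per group; extraction and scanning batches were not given, and no batch term was fitted. The members and gene lists were chosen with earlier results of these data known. Named were all called members, the 6 members with the smallest p in each direction per comparison, a fixed set of members, and up to 4 called genes per list in each comparison; not all are printed. Eef2, Eif4g2, Rpl30, Csf3r, Ngp and Camp lie outside this rule and were named after their values were seen. Also outside it are Fau and Rpl22l1, the measured genes of their list, and Myl4 and Sln, which define the atrium-rich arrays. Alternatives are given in the closing section. Start windows are from RefSeq, GRCr8.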

Additional observations from a re-analysis of the deposited data

Results flagged for a closer look

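Of 96 sets of 5 arrays looked at (31 named members and the mean of all members, in 3 groups), 5 held 1 array far from the other 4, by a gap over range above 0.71; chance gives about 1 in 20. Rpl3l in SAP 12 h replicate 3 was 10.75 log2, against 11.50 to 11.80 in the other 12 h arrays (gap over range 0.714); this array was rich in atrial transcripts. Rplp1 in sham replicate 3 was 17.67, against 18.09 to 18.19 in the other sham arrays (0.808). In SAP 24 h replicate 2, Rpl13a was 15.04 against 15.30 to 15.39 (0.743) and Rps18 was 12.82 against 13.36 to 13.51 (0.783). Rpl8 in SAP 24 h replicate 5 was 14.92, against 14.69 to 14.75 (0.739). By limma, Rpl3 at 24 h against 12 h differed by -1.04 log2 (adjusted p = 0.0357); the value was -0.63 without the atrium-rich arrays (adjusted p = 0.116) and -0.64 with the atrial covariate (0.114), and the call was lost on leaving out any 1 of the 24 h arrays or SAP 12 h replicate 4.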

How the results depend on the processing

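Percentages in this section are the shares of all probe sets called in the same fit. The 12 h count of 5 called members was 2 with the compared groups fitted alone (3.71%), 1 without the atrium-rich arrays (2.58%) and 0 at adjusted p under 0.01 (2.19%). With 1 array left out it was 2 to 6 (3.39% to 5.18%). The median of 0.27 log2 was 0.0967 without the atrium-rich arrays and 0.171 (without sham replicate 3) to 0.3125 (without sham replicate 1) otherwise. At 24 h against sham the count of 0 was 2 with the lowest 50% of probe sets left out (8.22%) and 2 with array weights (5.45%). It was 3 with the compared groups alone (5.3%), 1 with the atrial covariate (2.17%) and 1 without the atrium-rich arrays (2.16%). With 1 array left out it was 0 to 1 (1.81% to 4.32%). All of these calls were of Rpl3l, Rps27l or Rpl3, downward. At 24 h against 12 h the count of 1 was 0 with quantile normalization repeated (0.681%), the compared groups alone (0.323%) and the atrial covariate (0.358%). It was also 0 without the atrium-rich arrays (0.367%) and at adjusted p under 0.01 (0.173%), and 0 to 1 with 1 array left out (0.315% to 1.72%). The cause was not tested, although fits with fewer arrays also have less power. With the replicate block 4 members were called at 12 h (4.44%, Rps28 had adjusted p = 0.0547), 0 at 24 h (2.83%) and 1 between the times (0.699%). The labels do not state that the numbers pair arrays. Deviations of same-numbered arrays correlated between -0.168 and 0.258 at 12 h against sham. In the 3 comparisons 1, 1 and 0 of 5 arrays correlated best with their own number. No strong pairing was seen, but these correlations cannot exclude a weak one. Median centring gave 5, 0 and 1 called members (4.8%, 3.39% and 0.63%) and kept the sign of every median. It could hardly do otherwise, because the array medians lay between 5.9 and 5.98 log2. Quantile normalization repeated gave medians of 0.21, 0.07 and -0.14 log2, with 5, 0 and 0 called members (5.14%, 3.45% and 0.681%). Over all probe sets the calls ranged from 507 to 1353 at 12 h (1140 with all arrays and no filter), 255 to 1263 at 24 h (782) and 40 to 398 between the times (160).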
